A study of Rattus norvegicus with 25 samples.

Results

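Hbb, Hba-a2, Alas2, Slc4a1 and Epb42 are 5 genes of the erythroid lineage that were followed in 25 libraries of rat gingiva. They were taken from the deposited expression table by symbol, as 5 of its 30214 genes, and their 6 transcripts were summed per gene. They had been chosen with the difference between EP and sham rats in view, so their values against sham are given as a description without a test. The question was whether the genes that mark young red cells changed together with globin, and whether the hydrogels changed them.

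Gingiva of wild-type Sprague-Dawley rats, male according to the methods of the study, was measured by stranded total RNA sequencing after removal of ribosomal RNA, in 5 libraries in each of 5 groups. The methods give 5 rats a group, but the labels do not tie a library to a rat, so p-values measure the spread between these libraries. The labels give the rats' age as 6 weeks, and the methods give an older age. Sham rats had healthy gingiva and received hydrogel as a control. EP rats had experimental periodontitis, set up with silk ligatures around the maxillary first molars on both sides and smears of P. gingivalis, a bacterium of periodontal pockets. The gel groups, named Cur gel, ZNP gel and, for the mixture, Cur/ZNP gel, had the same periodontitis and received hydrogel with curcumin, with zinc oxide nanoparticles (ZNP) or with both, as 200 μL in the periodontal pockets each week over 4 weeks. The sample annotation used here lists 200 μL and 4 weeks of gel for all 5 groups, EP included. No source used here states that the EP rats received a blank hydrogel. Gel against EP may therefore compare the drug and the injection together. The methods describe penicillin injections and the drawing of blood from the heart before the gingiva was taken. The gingiva was sequenced as whole tissue with the blood it held, so more red cells and more RNA per red cell cannot be told apart.

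Red cells carry hemoglobin, a tetramer of alpha and beta globin chains that each hold 1 heme. Mature mammalian red cells have lost their nucleus and make no new RNA, while reticulocytes, the young cells just released from the marrow, still hold globin RNA. Hbb encodes a beta chain and Hba-a2 an alpha chain. Alas2 encodes the erythroid 5-aminolevulinate synthase, which catalyses the first step of heme synthesis in red cell precursors. Slc4a1 encodes band 3, the chloride and bicarbonate exchanger of the red cell membrane, and Epb42 encodes protein 4.2, which binds band 3 to the membrane skeleton.

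In the coordinates of the deposited table (Rnor_6.0), Hbb lies on the minus strand at chr1:168971274-168972725 and Hba-a2 on the minus strand at chr10:15589364-15590220. Alas2 lies at chrX:23167696-23187341 and Epb42 at chr3:112965653-112985318, both on the minus strand. Slc4a1 has 2 transcripts on the minus strand of chromosome 10, at chr10:90296141-90312386 and chr10:90296151-90307658. All 6 transcripts are annotated as protein coding, and no transcript of another gene in the table overlaps them. The table gives genomic spans and no transcript lengths, so levels are compared between libraries and not between genes.

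The 170 bases before the annotated start are shown for 4 of the 5 genes, because 3 of them were higher together and Epb42 was not. They come from RefSeq in the build GRCr8, which is not the build of the table, and are written 5′ to 3′ on the strand of the gene. In that build Alas2 is placed on the plus strand. Capitals mark the short motifs GATAA (the core bound by GATA factors), CACCC (bound by Klf factors), CCAAT and ATAAA, searched on both strands.
Hbb, chr1:167663722-167663891, minus strand: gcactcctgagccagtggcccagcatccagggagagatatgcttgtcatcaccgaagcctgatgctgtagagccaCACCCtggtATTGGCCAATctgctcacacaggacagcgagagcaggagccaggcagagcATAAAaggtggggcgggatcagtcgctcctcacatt
Hba-a2, chr10:15829139-15829308, minus strand: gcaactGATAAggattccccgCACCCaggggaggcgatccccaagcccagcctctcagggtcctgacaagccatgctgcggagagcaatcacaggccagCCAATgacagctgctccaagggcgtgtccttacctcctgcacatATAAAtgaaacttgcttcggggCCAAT
Alas2, chrX:22895280-22895449, plus strand: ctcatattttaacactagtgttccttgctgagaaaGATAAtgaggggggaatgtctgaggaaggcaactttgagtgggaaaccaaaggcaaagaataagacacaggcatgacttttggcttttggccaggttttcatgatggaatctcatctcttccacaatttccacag
Epb42, chr3:128451684-128451853, minus strand: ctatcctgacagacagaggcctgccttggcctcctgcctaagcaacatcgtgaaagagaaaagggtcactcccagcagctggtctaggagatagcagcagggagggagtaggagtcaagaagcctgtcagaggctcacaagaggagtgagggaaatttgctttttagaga

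Over the 250 bases before the start, the Hbb window held CACCC once, CCAAT on each strand and ATAAA once, and the Hba-a2 window held all 4 motifs. In the Alas2 window, GATAA was the motif found, 135 to 131 bases before the start, and the Epb42 window held none of the 4. Such matches are common, as GATAA was found in 23.5% of all 33469 promoter windows of this length, CACCC in 49.2%, CCAAT in 34.0% and ATAAA in 39.3%. A match describes the letters in the window and says nothing about whether a factor was bound there.

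The libraries held 50690789 to 81791804 reads. In 3 libraries genes of nasal glands, which are not gingival tissue, took 23.0% of the reads (Sham 4), 17.2% (EP 3) and 21.4% (EP 4), while they took at most 0.113% in the other 22 libraries. Results that rest on these libraries are given with and without them. The summed reads of all 8 adult globin genes in the table came to 65.9 to 165 CPM in sham and 222 to 739 CPM in EP, where CPM is a count scaled to a common library total.

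Both globin genes were higher in every EP library than in every sham library. Normalized counts of Hbb, which are reads divided by the size factor of the library, were 1941, 1064, 795, 2238 and 1170 in Sham 1 to Sham 5. They were 8501, 5147, 3967, 7587 and 9861 in EP 1 to EP 5, so the lowest EP library stood above the highest sham library. The mean was 7013 ± 2419 in EP and 1442 ± 616 in sham (SD, n = 5), a log2 difference of 2.31 (SE 0.365), or 4.96-fold. Without Sham 4, EP 3 and EP 4 the log2 difference of Hbb was 2.68.

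Hba-a2 followed Hbb. Its normalized counts were 2074, 1104, 918, 3053 and 980 in Sham 1 to Sham 5 and 6448, 4460, 3552, 6759 and 6775 in EP 1 to EP 5. The groups did not overlap, although Sham 4 and EP 3, both rich in nasal gland reads, were the nearest to each other. The log2 difference of Hba-a2 was 1.91 (SE 0.376), or 3.75-fold, and 2.27 without the 3 libraries with nasal gland reads.

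Alas2, the gene of the heme synthesis enzyme, was also higher in EP, with a larger log2 difference than either globin gene, although the gap between the genes was not tested. Its normalized counts were 40.1, 36.4, 0, 61.0 and 18.7 in Sham 1 to Sham 5, on 0 to 41 reads, and 197, 124, 100.1, 268 and 241 in EP 1 to EP 5, on 71 to 277 reads. Every EP library again stood above every sham library, and Sham 3 was listed at 0. The log2 difference of Alas2 was 3.28 (SE 0.741), and 2.24 without Sham 3, the library at 0. The models fitted on whole reads gave 2.60 (edgeR) and 2.61 (DESeq2).

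Slc4a1 had few reads. Its normalized counts were 0, 9.78, 0, 50.8 and 11.8 in Sham 1 to Sham 5, and 63.1, 40.1, 19.7, 93.7 and 55.7 in EP 1 to EP 5. Sham 4 overlapped the EP libraries and stood far above the other 4 sham libraries, which had at most 12 reads each. The log2 difference of Slc4a1 was 3.07 (SE 0.840), and edgeR gave 1.98 on whole reads. On log2(CPM + 1) it was 0.59 and that of Alas2 was 1.29, because low values are then small against the added 1. Without Sham 4, EP 3 and EP 4 the log2 difference was 3.95 for Slc4a1 and 3.78 for Alas2.

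Epb42 did not follow the other 4 genes. Its normalized counts were 49.6, 54.2, 159.97, 0 and 37.3 in Sham 1 to Sham 5, and 12.6, 26.4, 26.8, 48.3 and 22.6 in EP 1 to EP 5. The sham libraries spanned the whole EP range, with Sham 1, Sham 2 and Sham 3 above it and Sham 4 below it. The log2 difference of Epb42 was -0.10 (SE 0.910). It turned to 0.53 without Sham 3, to -1.30 without Sham 4 and to 0.08 with a pseudocount of 0.5, while edgeR gave -1.12, so its direction depended on the library and the scale. Without Sham 4, EP 3 and EP 4 it was -1.64.

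In all, 3 of the 5 genes had every EP library above every sham library, which was true of 8.07% of all 16062 genes tested. The genes were chosen on this contrast, so the share is given for scale. In every sham library Alas2 was under 2 CPM (at most 0.709), the level a gene needed in 1 library to be tested. It was therefore among the 16062 genes only through EP and gel libraries, where it was high. Hbb and Alas2 also had every EP and gel library above every sham library, as 1.95% of all genes did. For Hba-a2 this failed because Sham 4 (3053) stood above ZNP gel 2 (2627).

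**Figure D1:**
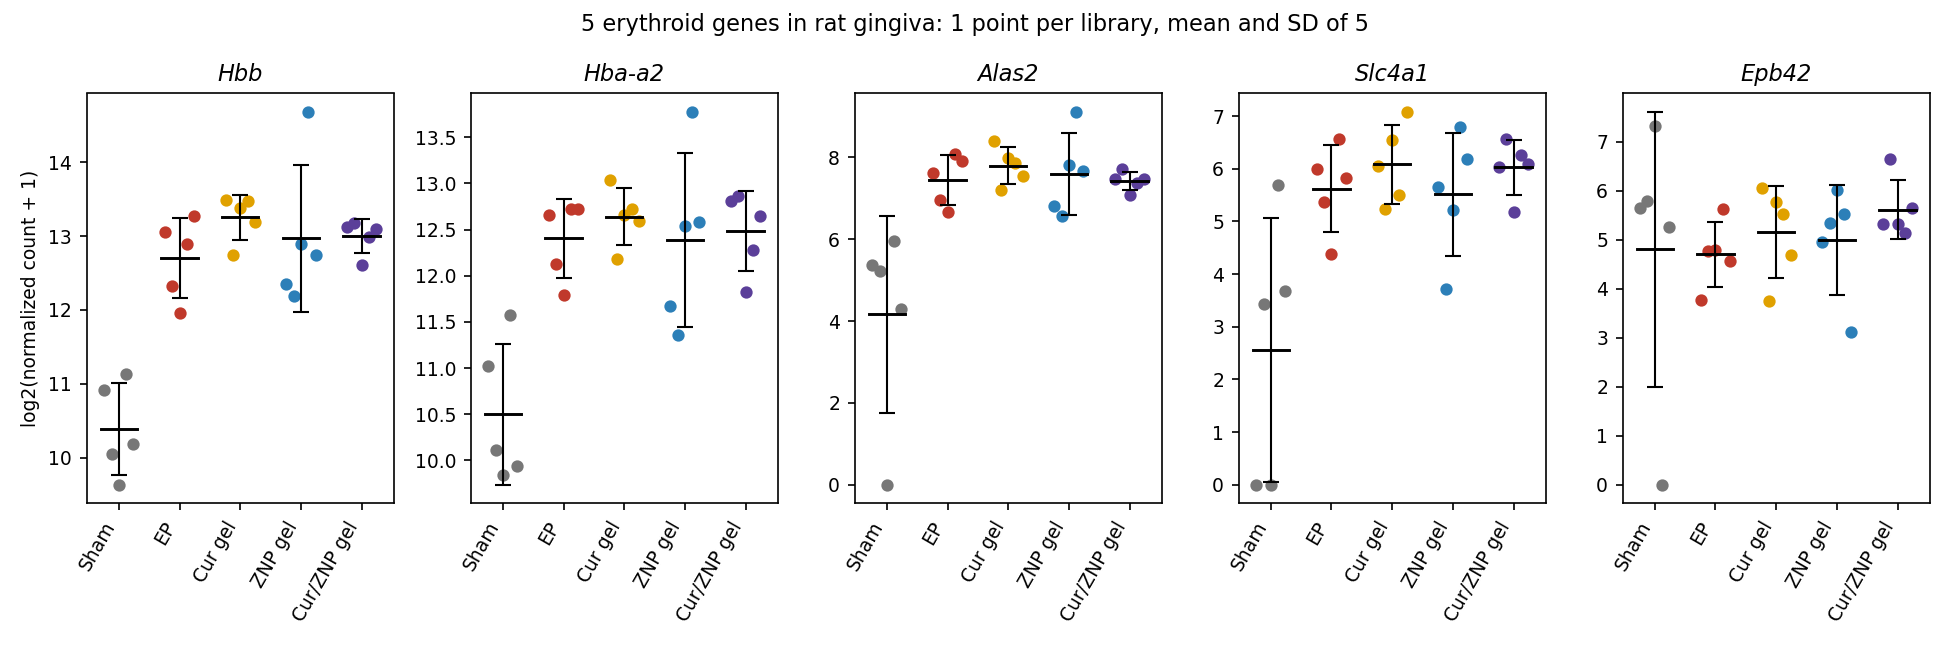
Each panel plots 1 gene as log2(normalized count + 1) on the vertical axis against the 5 groups, with a point for each library, and the bar and whiskers give the mean and SD of 5 libraries. Hbb, Hba-a2, Alas2 and Slc4a1 had lower means in sham than in the other groups, while Epb42 was spread from 0 to 159.97 normalized counts in sham alone.

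With hydrogel treatment the ranges of the 5 genes overlapped with those in EP. Hbb reached 11428, 6887, 10634, 11376 and 9375 normalized counts in Cur gel 1 to 5. In ZNP gel 1 to 5 it reached 5211, 4653, 7606, 26152 and 6843. In Cur/ZNP gel 1 to 5 it reached 8929, 9255, 6265, 8103 and 8768. The 3 ranges overlapped with each other and with EP, and ZNP gel 4 held more Hbb than any other library.

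Alas2 reached 337, 146, 253, 231 and 187 normalized counts in Cur gel 1 to 5, and 176, 209, 134, 166 and 178 in Cur/ZNP gel 1 to 5. In ZNP gel 1 to 5 it was at 112, 93.4, 225, 549.7 and 204. The gel libraries overlapped with EP, and ZNP gel 4 was again the highest. Hba-a2 ranged from 3631 to 7476 normalized counts with the Cur/ZNP gel, from 2627 to 13988 with the ZNP gel and from 4638 to 8385 with the Cur gel.

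Slc4a1 ranged from 35.1 to 94.2 normalized counts with the Cur/ZNP gel, from 12.1 to 111 with the ZNP gel and from 36.6 to 134 with the Cur gel. Epb42 ranged from 34.4 to 99.2 with the Cur/ZNP gel, from 7.70 to 64.2 with the ZNP gel and from 12.6 to 65.4 with the Cur gel. Both genes overlapped between all gel groups and EP. Against sham, which all these comparisons share, the log2 differences of Hbb were 2.61 with the Cur/ZNP gel, 2.58 with the ZNP gel and 2.87 with the Cur gel, and those of Alas2 were 3.26, 3.43 and 3.63 in the same order.

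None of the 15 comparisons of a gel with EP passed the test (limma, adjusted p over all genes, threshold 0.05). For Hbb the difference of Cur gel minus EP was 0.56 on the log2 scale (SE 0.365, 95% confidence interval -0.20 to 1.31), with an adjusted p of 1 (limma). For ZNP gel minus EP it was 0.27 (-0.49 to 1.03), and for Cur/ZNP gel minus EP it was 0.30 (-0.46 to 1.06). These intervals leave room for Hbb to be somewhat lower than in EP, but none of them reaches the distance between EP and sham.

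For Alas2 the same 3 differences were 0.35 (-1.19 to 1.89), 0.15 (-1.39 to 1.68) and -0.02 (-1.56 to 1.51). For Hba-a2 they were 0.23 (-0.55 to 1.01), -0.02 (-0.80 to 0.76) and 0.08 (-0.70 to 0.86). For Slc4a1 the differences were 0.46, -0.11 and 0.40 in the same order, and for Epb42 they were 0.46, 0.29 and 0.91. The intervals of Slc4a1 and Epb42 were wider, from -1.85 at the lowest to 2.80 at the highest, so these 2 genes could differ severalfold without being detected.

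Nor did any of the 15 comparisons between gels pass. The differences ranged from -0.57 (Slc4a1, ZNP gel minus Cur gel) to 0.62 (Epb42, Cur/ZNP gel minus ZNP gel), with adjusted p from 0.862 to 1 (limma). Over all 30 comparisons of members without sham, 0 passed with limma, edgeR or DESeq2, and 0 had an unadjusted p under 0.05 with any of these tools. In the whole table limma called 0.00623% of all genes between ZNP gel and EP and 0% in each of the other 5 comparisons without sham, and edgeR called 0% in all 6. DESeq2 called 1.28% of all genes between Cur/ZNP gel and EP, 0.511% between Cur gel and EP and 0.399% between ZNP gel and EP, and, between gels, 0.150% for Cur/ZNP gel against ZNP gel, 0.0748% for ZNP gel against Cur gel and 0.0312% for Cur/ZNP gel against Cur gel.

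**Figure D2:**
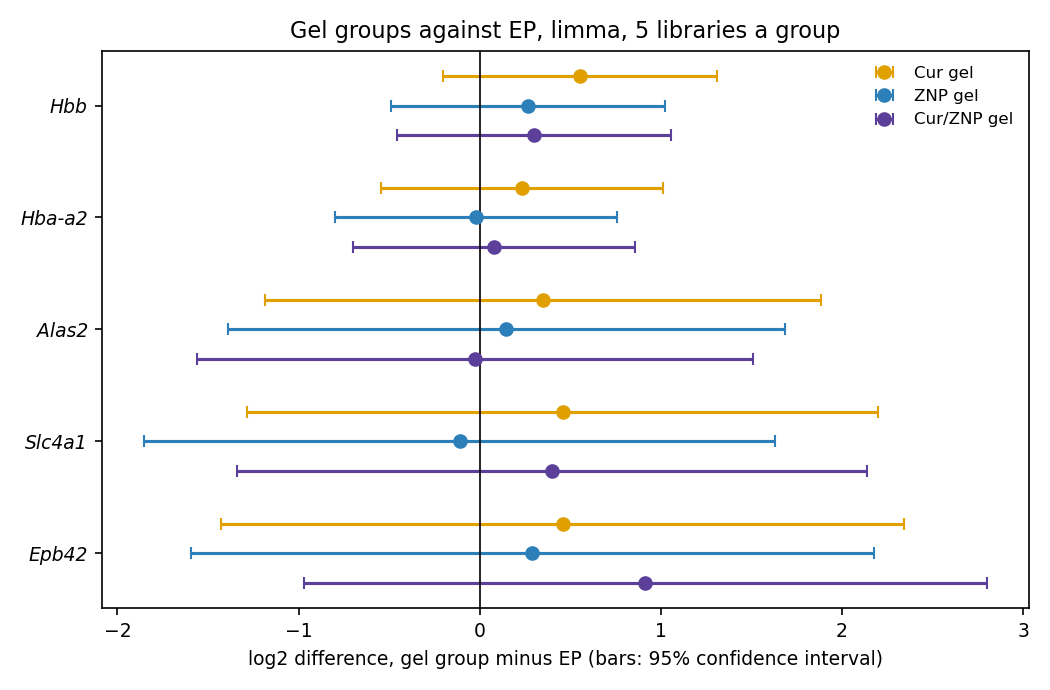
Points are limma log2 differences of each gel group minus EP (horizontal axis) for the 5 genes (vertical axis), with 95% confidence intervals from 5 libraries a group. All 15 intervals span 0, and those of Alas2, Slc4a1 and Epb42 are wider than those of Hbb and Hba-a2.

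Ratios between genes within 1 library are not moved by library scaling, and show whether the precursor genes kept step with globin. Alas2 made up 13.2, 12.9, 13.3, 18.7 and 14.5 reads per 1000 reads of Hbb and Hba-a2 in EP 1 to EP 5. In sham it made up 9.98, 16.8, 0, 11.5 and 8.68 in Sham 1 to Sham 5. The 2 groups overlapped, and 4 of 5 sham libraries stood below the lowest EP library. Sham 3 held 1306 reads of the 2 globin genes and 0 of Alas2, which allows up to 2.30 per 1000.

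Across the gel groups the ratio stayed in a narrow range. Alas2 made up 10.9 to 13.5 reads per 1000 with the Cur/ZNP gel, 12.8 to 16.6 with the ZNP gel and 11.997 to 17.0 with the Cur gel. ZNP gel 4, with the most Hbb of all libraries, was at 13.7 reads of Alas2 per 1000, the median of its group. The SD of the log2 ratio was 0.12 with the Cur/ZNP gel, 0.16 with the ZNP gel, 0.21 with the Cur gel and 0.22 in EP.

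The ratio of Alas2 was lower in Cur/ZNP gel than in EP by a log2 difference of -0.23 (exact two-sided permutation test, p = 0.0476, adjusted p = 0.143 over 6 comparisons). Against ZNP gel it was lower by -0.23 (exact permutation p = 0.0317, adjusted p = 0.143). Neither difference passed after adjustment, and with all 8 globin genes as the denominator the adjusted p of both was 0.619 in the same exact permutation test.

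The sum of Alas2, Slc4a1 and Epb42 per 1000 globin reads was 18.2 to 28.6 in EP, 17.3 to 24.1 with the Cur/ZNP gel, 17.6 to 23.9 with the ZNP gel and 16.9 to 23.6 with the Cur gel. The 6 log2 differences between these groups ranged from -0.04 to 0.04, with adjusted p = 0.984 for each (exact two-sided permutation tests, 5 libraries against 5, where the smallest p is 0.00794). In sham the sum was 21.1 to 93.4, and Epb42 held its highest value, since Sham 3 had 93.4 reads of Epb42 per 1000 globin reads and none of the other 2 genes. In EP minus sham the log2 difference of the ratio was 1.31 for Alas2, 1.28 for Slc4a1 and -2.26 for Epb42, where a library at 0 reads was given 0.5 read. These values rested on the sham libraries at 0 or with the most reads. Alas2 was at 0.34 without Sham 3, Slc4a1 at 0.37 without Sham 1 and 0.76 without Sham 3, and Epb42 at -1.45 without Sham 3 and -3.68 without Sham 4. The median of Slc4a1 was 4.51 reads per 1000 globin reads in sham and 4.18 in EP, the opposite order of its mean log2 values.

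**Figure D3:**
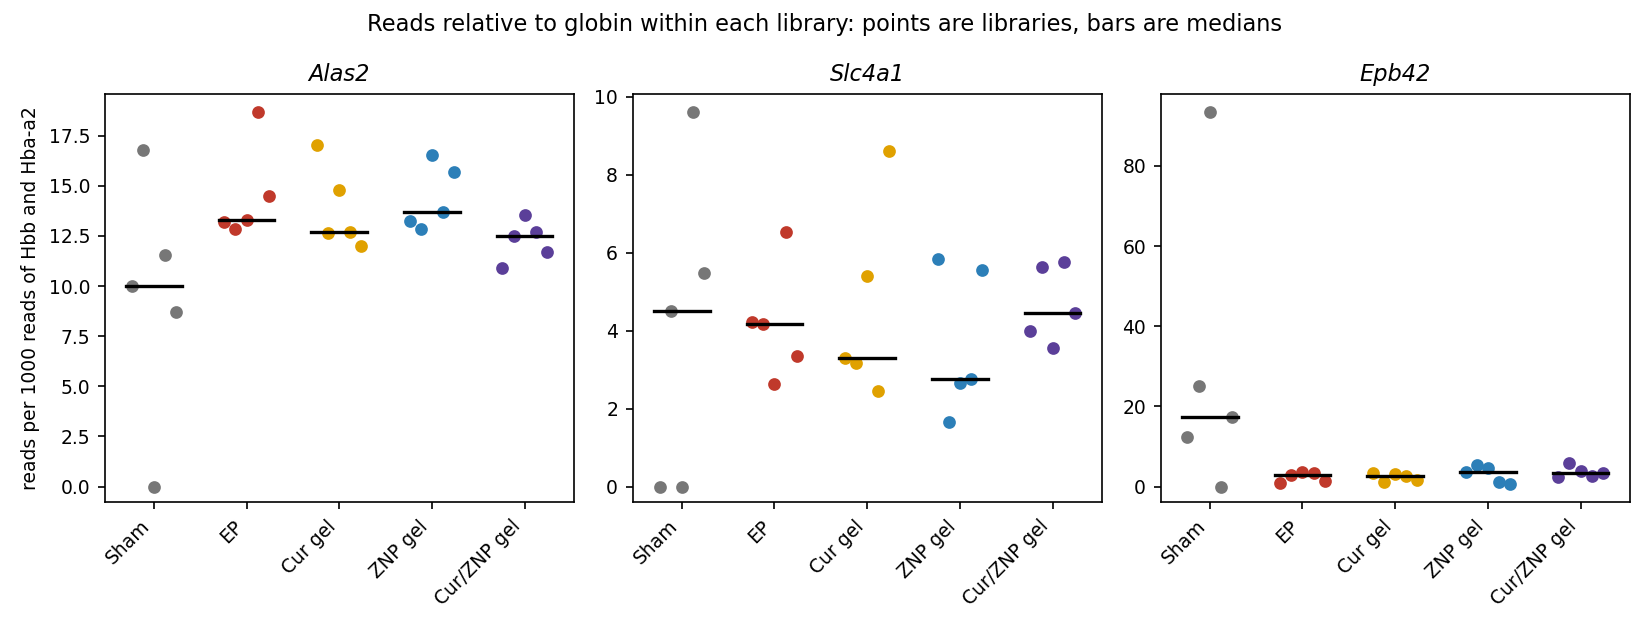
Each panel plots the reads of 1 gene per 1000 reads of Hbb and Hba-a2 (vertical axis) in every library of the 5 groups, with the group median as a bar. Alas2 lay between 10.9 and 18.7 in all 20 EP and gel libraries, and Epb42 was high in 4 of the 5 sham libraries.

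Within groups, libraries with more Hbb also had more Hba-a2 and more Alas2. Deviations of the log2 values from the group means were compared over 25 libraries for 10 pairs of genes, a relation that the contrast of EP with sham does not fix. For Hbb and Hba-a2, Pearson's r was 0.93 and Spearman's rho 0.91 (permutation p = 1e-05 for each, the smallest that 100000 permutations can give; adjusted p = 5e-05 and 3.33e-05). For Hbb and Alas2, r was 0.71 and rho 0.82 (permutation p = 1e-05 for each; adjusted p = 5e-05 and 3.33e-05). For Hba-a2 and Alas2, r was 0.69 and rho 0.81 (permutation p = 0.00036 and 1e-05, adjusted p = 0.0012 and 3.33e-05).

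These 3 relations held without the 2 libraries farthest from the median (r = 0.92, 0.73 and 0.65) and on log2(CPM + 1) (r = 0.94, 0.93 and 0.94). Each log2 value also carries the scaling and depth of its library, which the genes of 1 library share. The spread of globin within a group was large in ZNP gel, where Hbb ran from 4653 to 26152 normalized counts.

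None of the 3 pairs with Slc4a1 passed for r, and the pair with Alas2 passed for rho. Its r was 0.49 with Hbb (rho 0.45), 0.52 with Hba-a2 (rho 0.40) and 0.63 with Alas2 (rho 0.56), each with a permutation p adjusted to 0.0777 for r. For rho the adjusted permutation p was 0.116, 0.167 and 0.0320. Without Sham 1, which had 0 reads of Slc4a1, r rose to 0.69, 0.72 and 0.87, and on log2(CPM + 1) all 3 passed. Without the 2 libraries farthest from the median r was 0.43, 0.42 and 0.40, so the size of the relation of Slc4a1 with the others depended on single libraries.

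Epb42 again stood apart, with r of -0.19 with Hbb, -0.29 with Hba-a2, -0.40 with Alas2 and -0.56 with Slc4a1. None of the 4 passed, the smallest adjusted permutation p for r being 0.125. On log2(CPM + 1) r was 0.15, 0.13, 0.21 and -0.06 in the same order, so the direction of the first 3 turned with the scale. Over all 25 libraries, r with the mean of the 5 standardized genes, which includes each gene itself, was 0.97 for Hbb, 0.95 for Hba-a2, 0.91 for Alas2, 0.83 for Slc4a1 and 0.13 for Epb42.

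**Figure D4:**
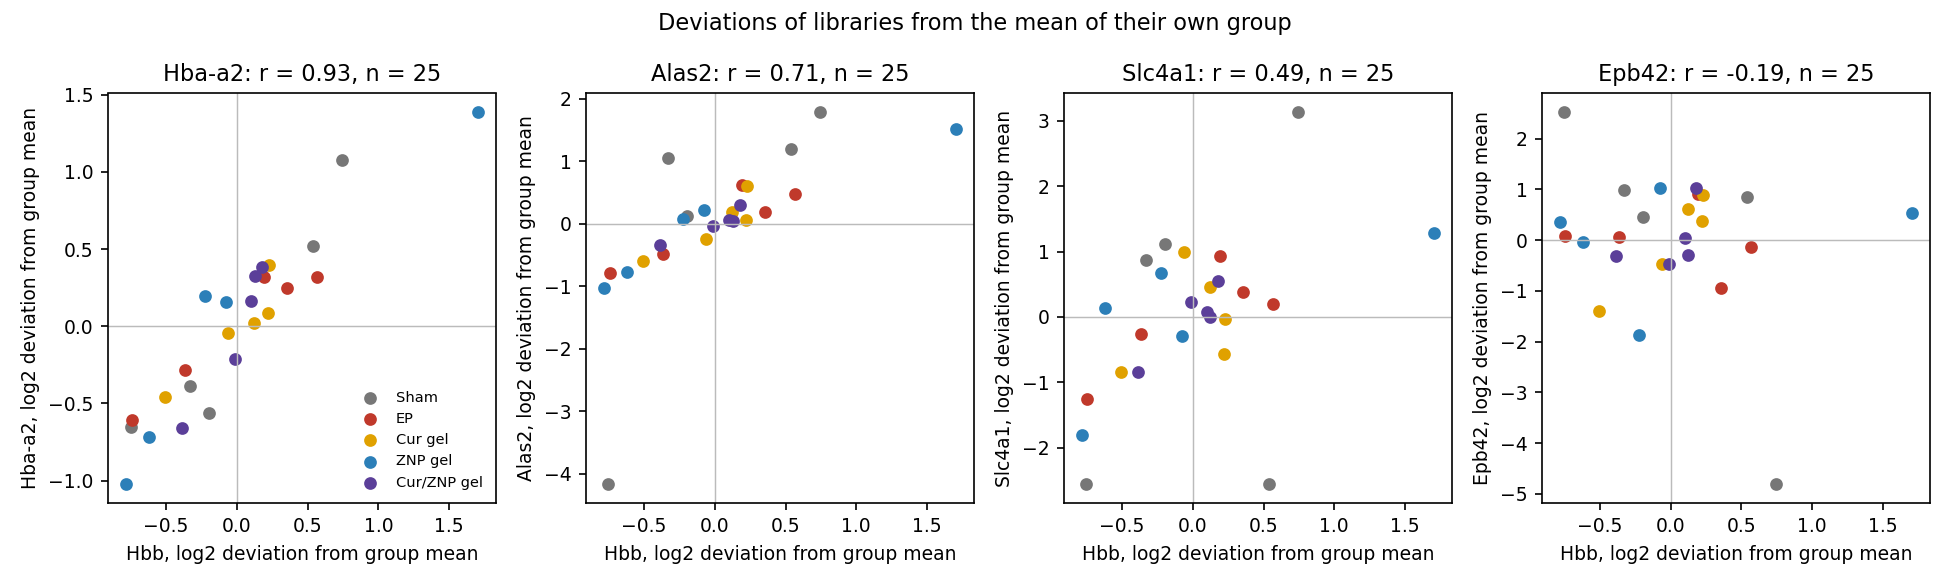
Each point is 1 of 25 libraries, plotted as the log2 deviation from its group mean for Hbb (horizontal axis) and for Hba-a2, Alas2, Slc4a1 or Epb42 (vertical axes), colored by group. The points rise together for Hba-a2 (r = 0.93) and Alas2 (r = 0.71) and show no common direction for Epb42 (r = -0.19).

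The table held 6 further alpha and beta globin genes, near-identical copies that can share reads with Hbb and Hba-a2, so their values are not independent of these. All 6 passed the test as higher in EP than in sham (limma), beside 18.8% of all genes tested that were higher and 18.8% that were lower. Hba-a1, the second alpha chain gene, was at 1955 to 4675 normalized counts in sham and 8563 to 17175 in EP, with a log2 difference of 2.15 (SE 0.330, adjusted p = 0.000168, limma). Its promoter window matches that of Hba-a2 at 241 of 250 bases.

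Other copies were Hbb-bs, with a log2 difference of 2.03 (SE 0.388, adjusted p = 0.000633, limma), LOC103694857 at 2.24 and LOC103694855 at 2.18. Hba-a3 was listed at 0 reads in 5 of 25 libraries, namely Sham 2, Sham 5 and Cur/ZNP gel 2, 4 and 5, and it held 30 to 623 reads in the other 20. The embryonic and fetal type genes Hbe2, Hbg1 and Hbz had 0 reads in all 25 libraries, and Hbe1 had 29 reads in all, which came from ZNP gel.

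The beta globin copies took different shares in different libraries. Reads of LOC100134871, a beta globin gene beside Hbb, were 0.09 to 0.11 per Hbb read in 2 libraries (ZNP gel 4 and Cur/ZNP gel 4), 0.225 to 0.383 in 14 libraries and at least 0.419 in 9, with 1.09 in Sham 4 as the highest. All 5 groups held libraries of the last kind, and the ratio followed no group. Summed alpha globin reads per summed beta globin read were steadier, at 1.32 to 1.99 in sham, 1.51 to 1.92 in EP and 1.29 to 1.64 in the gel groups.

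Beyond globin, fewer erythroid genes moved. Of 71 other erythroid genes tested in 5 lists, 24 were higher and 5 lower in EP than in sham (limma), which is 33.8% higher and 7.04% lower beside 18.8% and 18.8% of all genes. Without the 6 globin genes, an alternative chosen after the data were seen, 18 of 65 were higher (27.7%) and 5 lower. The median log2 difference was 0.27 over the 71 genes and 0.21 over the 65, beside 0.01 over all genes. When the sham and EP libraries were fitted alone, 15 of the 71 were higher and 4 lower, and without Sham 4, EP 3 and EP 4 the counts were 19 and 3.

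Genes of the red cell membrane and surface gave 6 higher (35.3%) and 2 lower (11.8%) of 17 tested, beside 18.8% of all genes each way. Their median log2 difference was 0.28. Epb41, which encodes protein 4.1 of the membrane skeleton, rose by 1.25 on the log2 scale (SE 0.186, adjusted p = 0.000142, limma). Sptb, which encodes the beta chain of spectrin, rose by 3.17 (SE 0.604, adjusted p = 0.000623, limma), and Ank1, which encodes the ankyrin that anchors spectrin to band 3, by 3.36 (SE 0.655, adjusted p = 0.000715, limma). Slc2a1, which encodes a glucose transporter of many cell types, fell by 1.02 (SE 0.215, adjusted p = 0.00123, limma).

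Sptb and Ank1 are also transcribed in skeletal muscle, whose genes were themselves higher in EP. Of 16 muscle genes tested, 10 were called higher (62.5%, beside 18.8% of all genes), with a median log2 difference of 3.01. Their summed levels were 361 to 9599 CPM in sham and 5133 to 38938 in EP. Without Sham 4, EP 3 and EP 4, none of Ryr1, Actn2, Neb and Acta1, the 4 muscle genes of smallest p, passed (adjusted p of 0.0550, 0.0523, 0.0536 and 0.0743, limma). Within groups, r of Ank1 was 0.82 with the mean of the muscle genes (rho 0.89) and -0.05 with Hbb. For Sptb, r was 0.68 with the muscle genes (rho 0.66) and 0.10 with Hbb. Of 10 such relations computed after the values were seen, these 2 with muscle had permutation p adjusted to 0.0003 and 0.0194 for r, and adjusted to 0.0001 and 0.0168 for rho, while the 2 with Hbb each had 0.897 for r. Without the 2 farthest libraries r with muscle was 0.84 for Ank1 and 0.60 for Sptb. Of the same 10 relations, Tubb1, a platelet gene, also passed with muscle (r 0.54, rho 0.62, permutation p adjusted to 0.00215 and 0.001), and Clec1b, a platelet receptor gene, passed with muscle for rho alone (r -0.46 and rho -0.56, permutation p adjusted to 0.0563 and 0.0168). For Epb41, r was 0.10 with muscle and -0.28 with Hbb.

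Heme synthesis and erythroid iron genes gave 4 higher (23.5%) and 1 lower (5.88%) of 17, beside 18.8% of all genes each way, with a median of 0.14. Abcb10, a mitochondrial transporter of erythroid cells, rose by 0.68 (SE 0.197, adjusted p = 0.00999, limma). Alad, the second enzyme of heme synthesis, rose by 0.81 (adjusted p = 0.0242, limma), and Slc11a2, an iron importer, by 0.66 (adjusted p = 0.0205, limma). Cpox, a later enzyme of the pathway, fell by 0.50 (adjusted p = 0.0238, limma). Without Sham 3 the adjusted p (limma) rose to 0.0855 for Alad, 0.0597 for Slc11a2 and 0.0888 for Cpox, and leaving out Sham 1 or EP 3 also ended each of these 3 calls (Alad 0.0518 and 0.0592, Slc11a2 0.0699 and 0.0609, Cpox 0.0595 and 0.0647), as did EP 2 for Alad (0.0584) and Cpox (0.0587) and EP 4 for Slc11a2 (0.0599). The adjusted p (limma) on log2(CPM + 1) was 0.203 for Abcb10, at a log2 difference of 0.51, 0.0617 for Slc11a2 and 0.0676 for Cpox. With the 2 groups alone it was 0.0864 for Alad, 0.0896 for Slc11a2 and 0.0827 for Cpox, and Cpox was at 0.146 without Sham 4, EP 3 and EP 4. No other tested gene of this list had a log2 difference above the 0.81 of Alad, while that of Alas2 was 3.28.

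Erythroid transcription factor and receptor genes gave 2 higher (22.2%) and 1 lower (11.1%) of 9, beside 18.8% of all genes each way, with a median of 0.21. Sox6, a factor that takes part in red cell maturation and in muscle, rose by 2.40 (SE 0.639, adjusted p = 0.00598, limma). Its call was lost with the 2 groups alone (adjusted p = 0.0632, limma). Zfpm1, a partner of GATA factors, rose by 0.48 (adjusted p = 0.0468, limma), but not without Sham 3 (0.166), Sham 4 (0.0787), EP 1 (0.0581), EP 2 (0.151) or EP 3 (0.116). Other settings also ended the call of Zfpm1, with adjusted p (limma) of 0.403 on log2(CPM + 1), 0.0649 without a filter, 0.0513 with filterByExpr, edgeR's own filter, 0.0639 with the replicate block, 0.161 with the 2 groups alone and 0.129 without Sham 4, EP 3 and EP 4. Bcl11a, a repressor of fetal globin genes, fell by 0.80 (adjusted p = 0.0154, limma), and its adjusted p was 0.0547 without Sham 3 and 0.0820 on log2(CPM + 1). Ldb1 did not pass, at -0.43 (adjusted p = 0.0737, limma).

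The late erythroid and reticulocyte genes gave 6 higher (27.3%) and 1 lower (4.55%) of 22, beside 18.8% of all genes each way, with a median of 0.24. Cat, which encodes catalase, rose by 0.80 (adjusted p = 0.00402, limma), and Xpo7, a nuclear exporter needed for red cell maturation, by 0.34 (SE 0.0909, adjusted p = 0.00616, limma). Xpo7 did not pass on log2(CPM + 1), at 0.20 (adjusted p = 0.572, limma), or with the 2 groups alone (0.0673). Tent5c rose by 1.96 (adjusted p = 0.0253, limma), but its adjusted p was 0.0766 without Sham 1, 0.0901 without Sham 3, 0.0542 without EP 2, 0.0682 without EP 3 and 0.0596 without EP 4. It also missed the threshold with edgeR (0.0539), with the 2 groups alone (0.0806, limma) and without Sham 4, EP 3 and EP 4 together (0.0545, limma).

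**Figure D5:**
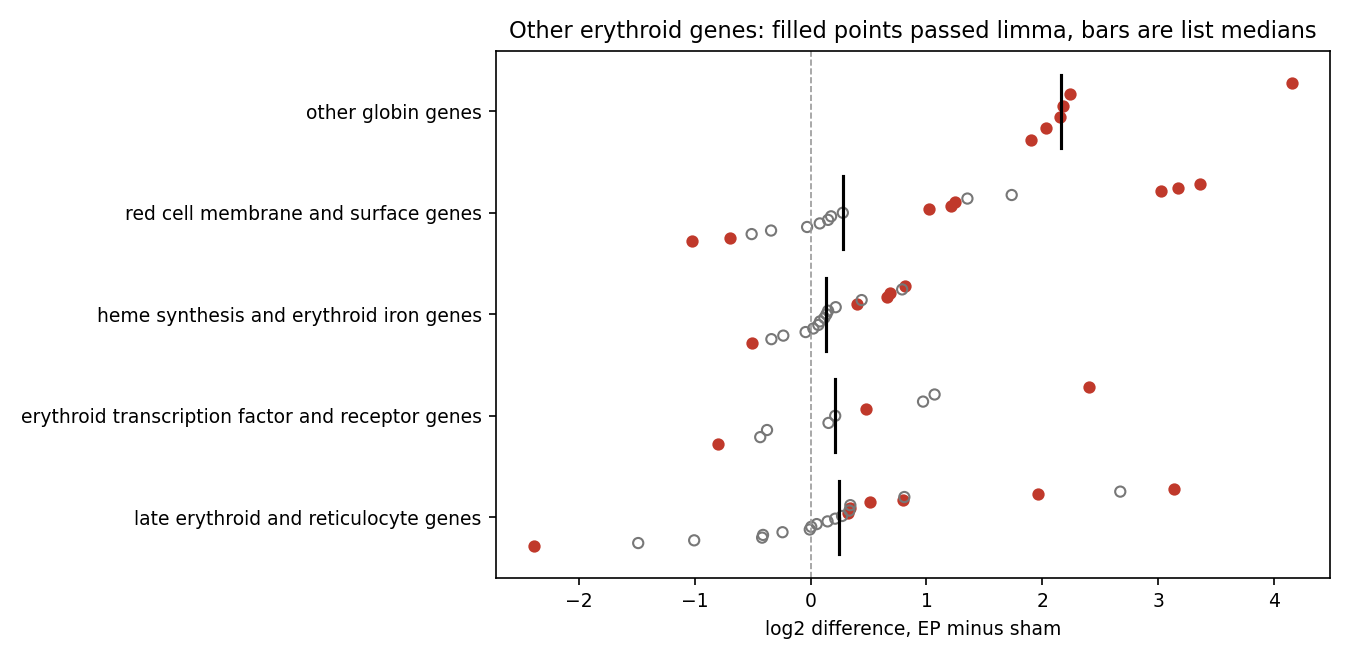
Points are limma log2 differences of EP minus sham (horizontal axis) for the tested genes of 5 erythroid lists (rows), filled where the adjusted p was under 0.05, and bars are list medians. The 6 other globin genes lie at or above 1.90, while the medians of the other 4 lists lie between 0.14 and 0.28.

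Several defining genes of red cell precursors were too low to test. Gata1, the central erythroid factor, had 6 reads over the 5 sham libraries and 4 over the 5 EP libraries. Klf1, the factor that switches on beta globin, had 295 and 208, and Ahsp, the chaperone of free alpha globin, had 77 and 93. Their sums did not follow globin, whose Hbb reads alone ran from 606 to 1841 in a sham library and from 2815 to 11326 in an EP library. Most other erythroid genes below the filter that had reads in these groups were higher in the EP sums, which were not tested. Among them were Alox15 (88 and 291 reads), Kel (0 and 47), Epor (82 and 129), Gfi1b (9 and 27), Hemgn (15 and 55) and Rhag (23 and 68). Besides Gata1 and Klf1, Rhd (121 and 111) and Car1 (24 and 15) were lower. Of the 93 listed erythroid genes in the table, 22 were below the filter.

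Against sham, the gel groups gave similar counts of other erythroid genes, and all these comparisons share the sham libraries. Of the 71 genes, 19 were higher and 7 lower in Cur gel, beside 19.0% and 19.0% of all genes. In ZNP gel 17 were higher and 4 lower, beside 16.7% and 15.4% of all genes. In Cur/ZNP gel 19 were higher and 5 lower, beside 20.2% and 19.4%. Without the 6 globin genes, 13 (20%), 11 (16.9%) and 14 (21.5%) of the other 65 were higher in the same order. These higher shares lie near those of all genes, 19.0%, 16.7% and 20.2%. The lower shares of the 65 were 10.8%, 6.15% and 7.69%, below the 19.0%, 15.4% and 19.4% of all genes.

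Genes of other blood cells were also measured. Of 11 platelet and megakaryocyte genes tested, 5 were higher (45.5%) and 0 lower in EP than in sham, beside 18.8% of all genes each way. Tubb1, which encodes the beta-tubulin of platelets, was listed at 0 in 4 of 5 sham libraries and at 14.1 to 156 normalized counts in EP (log2 difference 5.05, SE 0.782, adjusted p = 0.00017, limma). Within groups its r was 0.54 with the muscle genes and -0.05 with Hbb. Clec1b, a receptor on platelets, rose by 3.60 (SE 0.813, adjusted p = 0.00196, limma), but did not pass on log2(CPM + 1), at 0.53 (adjusted p = 0.123, limma), or with the 2 groups alone (0.0531). Tubb1 passed the filter only through EP 2 (2.41 CPM) and ZNP gel 5 (2.07 CPM), and Clec1b only through Cur gel 1 (2.10 CPM). Their calls against sham therefore concern genes that entered through groups where they were high. The defining gene Gp9, below the filter, had 217 reads in all sham and 67 in all EP libraries, and the summed level of the 18 listed genes in the table ranged from 54.1 to 319 CPM in sham and from 158 to 635 in EP, with none of the 18 at 0 in a whole group.

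Of 18 neutrophil genes tested, 3 were higher and 0 lower. The 16.7% that were higher lie near the 18.8% of all genes that were higher. Retnlg rose by 2.37 (SE 0.595, adjusted p = 0.004, limma), Ngp by 2.70 (adjusted p = 0.028, limma) and Cxcr2, a chemokine receptor of neutrophils, by 1.12 (adjusted p = 0.014, limma). Without Sham 4, EP 3 and EP 4 none of the 3 passed, with adjusted p of 0.0582, 0.136 and 0.0797 (limma), and Ngp also failed without Sham 2 (0.0567), Sham 4 (0.0910), EP 2 (0.0574) or EP 4 (0.0692). None of the 3 passed on log2(CPM + 1) either, with adjusted p (limma) of 0.0896 for Retnlg, 0.190 for Ngp and 0.169 for Cxcr2. With edgeR the adjusted p was 0.106 for Ngp and 0.0559 for Cxcr2, with DESeq2 0.0606 for Ngp, and with the 2 groups alone 0.108 for Ngp and 0.0824 for Cxcr2 (limma). Their summed level was 138 to 1146 CPM in sham and 189.5 to 1435 in EP, so the groups overlapped, and Fpr1 and Fpr2 were at 0 in sham. The share that blood of these cell types had in the globin difference was not tested.

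Marrow progenitor genes gave 2 higher (20%) and 2 lower (20%) of 10 tested, near the 18.8% of all genes each way. Their summed levels were 172 to 542 CPM in sham and 132 to 261 in EP. Mki67, the marker of dividing cells, fell by 1.502 (SE 0.262, adjusted p = 0.000341, limma), and Kit, the stem cell factor receptor, rose by 1.67 (adjusted p = 0.0118, limma). Of 19 blood vessel endothelial genes, 2 were higher (10.5%) and 1 lower (5.26%), below the shares of all genes. Their summed levels were 522 to 1965 CPM in sham and 703 to 1876 in EP, with a median log2 difference of 0.03. Nasal gland genes gave 0 called of 10 tested, with a median of 2.55.

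Genes that recycle heme and iron gave 7 higher (35%) and 1 lower (5%) of 20, beside 18.8% of all genes each way. Cd163, the macrophage receptor for hemoglobin bound to haptoglobin, rose by 1.72 (SE 0.383, adjusted p = 0.00177, limma). Slc40a1, the iron exporter ferroportin, rose by 1.66 (adjusted p = 0.00321, limma) and Flvcr1, a heme exporter, by 1.66 (adjusted p = 0.00217, limma). Ftl1, a light chain of ferritin, fell by 1.09 (adjusted p = 0.000877, limma). Hypoxia response genes went both ways, with 3 higher (17.6%) and 2 lower (11.8%) of 17, neither above the share of all genes. Hk2 was at 1.46 and Eno1 at -0.59. Among other genes of the globin fold, Mb, the myoglobin of muscle, rose by 3.16 (adjusted p = 0.0314, limma), although not without EP 1 (0.0673), EP 2 (0.0675), EP 5 (0.0519), Sham 4 (0.0547) or Sham 5 (0.0758), nor on log2(CPM + 1) (0.0610) or without Sham 4, EP 3 and EP 4 (0.0609), while Cygb, at 0.32, and Ngb, at -1.28, did not pass.

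The genes most like the 5 members over all 25 libraries, by Pearson's r with the mean of their standardized log2 values, were the globin copies Hba-a1 (0.969) and Hbb-bs (0.93). They were followed by LOC103694857 (0.865), Plcxd2 (0.862), Per1 (0.853), a gene of the circadian clock, Acox3 (0.842), Vwf (0.836), which encodes von Willebrand factor, F13a1 (0.835), LOC103694855 (0.832) and Pik3r1 (0.83). By deviations from the group means, which take the difference from sham out, Hba-a1 (0.876) and Hbb-bs (0.758) stayed first. The others were then Cep97 (0.694), Rassf2 (0.645), Aldh3b1 (0.621), Lrrk2 (0.611), Kynu (0.603), Ikzf3 (0.603), St8sia4 (0.595) and Tspan32 (0.594). These are descriptions over 25 libraries, which share depth and scaling across genes.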

How the data were processed

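The authors deposited 1 table of signal values, in which the reads of each Ensembl transcript (Rnor_6.0) had been scaled by the size factor of the library. The labels name DESeq2 for this, and the aligner is not given in the sources used here. The lower values of each library were all whole multiples of 1 step within 0.01, which gave back whole reads. Higher values, such as most of those of globin, were divided by the same step and rounded without this check. Libraries held 50690789 to 81791804 reads, which limits genes of few reads such as Slc4a1 and Epb42. The 95% intervals are limma's, from the spread between libraries, and the limit given for a count of 0 covers counting error only. The table held 840 blank lines. Transcripts were summed to 30214 genes by symbol, and 396 transcripts without a symbol were kept under their transcript ID and are part of this number. Genes that reached a CPM of 2 in 1 library or more (16062) entered the test, as log2 of the normalized count with 1 added. A gene can thus enter through a group where it is high. Alas2, at most 0.709 CPM in sham, and Hba-a3, at most 1.50, entered through EP and gel libraries alone. Slc4a1 reached this CPM in Cur gel 5 alone (2.11), Epb42 in Sham 3 alone (2.41) and Clec1b in Cur gel 1 alone (2.10). Tubb1 reached it in EP 2 (2.41) and ZNP gel 5 (2.07) alone. The test was limma 3.58.1 in R 4.3.3, robust and with a variance trend, in 1 model of 25 libraries without a block. Adjusted p-values are Benjamini-Hochberg values over all genes with a threshold of 0.05, two-sided. edgeR 4.0.16 (TMM) and DESeq2 1.42.0 on the whole reads, other filters and pseudocounts, and leaving out each library were alternatives. Ratios used exact permutation tests and correlations 100000 permutations within groups (Python, scipy 1.17.1). Scripts were tested on simulated data.

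The members and gene lists were chosen with earlier results of these data known. Named genes are the 5 members, up to 4 of each list with the smallest p between EP and sham, and the 10 genes most like the members by each of 2 measures. Genes below the filter, LOC100134871 and Hba-a3 were named after their values were seen. Libraries are the replicates. Sequences are from RefSeq (GRCr8), where 4 of 5 members had an entry. 1 gene of the late erythroid list is not reported here by name.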

Additional observations from a re-analysis of the deposited data

Results flagged for a closer look

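Among 40 groups of 5 libraries examined, 5 genes and 3 ratios in 5 groups each, 6 held a library whose gap to the nearest other library was over 0.71 of the range of the group. Chance marks about 1 in 20 such groups. In ZNP gel 4, Hbb was at 26152 normalized counts beside 4653 to 7606 in the other 4 ZNP gel libraries, and Alas2 at 549.7 beside 93.4 to 225. In Sham 4, Slc4a1 was at 50.8 normalized counts beside 0 to 11.8 in the other sham libraries, and this library also held 23.0% nasal gland reads. In Cur/ZNP gel 2, Epb42 was at 99.2 normalized counts beside 34.4 to 49.6. In EP 4, with 21.4% nasal gland reads, Alas2 made up 18.7 reads per 1000 globin reads beside 12.9 to 14.5, and the sum of Alas2, Slc4a1 and Epb42 made up 28.6 beside 18.2 to 19.8. What part the nasal gland reads had in these values was not tested.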

How the results depend on the processing

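No gene of the 5 was called between EP and the gels or between gels under any alternative run, so no such call could be lost. On log2(CPM + 1) the median EP minus sham difference of the 5 genes was 1.29 instead of 2.31. The ratio of Alas2, Slc4a1 and Epb42 to globin differed little between groups, and its sign turned with the gene. For Cur gel minus EP it was 0.0484 with Slc4a1 alone, 0.0509 with Epb42 alone and 0.11 without Sham 4, EP 3 and EP 4. For ZNP gel minus EP it was -0.0032 with Alas2 alone, -0.27 with Slc4a1 alone and -0.10 over Hbb alone. For Cur/ZNP gel minus EP it was 0.20 with Slc4a1, 0.74 with Epb42 and 0.10 without those 3 libraries. For Cur/ZNP gel minus Cur gel it was 0.15 with Slc4a1, 0.69 with Epb42 and 0.0389 over Hbb alone. For Cur/ZNP gel minus ZNP gel it was 0.47 with Slc4a1 and 0.60 with Epb42, and for ZNP gel minus Cur gel it was -0.32 with Slc4a1. Leaving out 1 library gave ratio differences of -0.0670 to 0.0985 (Cur gel minus EP), -0.0258 to 0.136 (ZNP gel minus EP), -0.0800 to 0.0936 (Cur/ZNP gel minus EP), -0.0752 to 0.0548 (Cur/ZNP gel minus Cur gel), -0.108 to 0.0175 (Cur/ZNP gel minus ZNP gel) and -0.0329 to 0.103 (ZNP gel minus Cur gel). On log2(CPM + 1), r with Slc4a1 was 0.61 for Hbb, 0.66 for Hba-a2 and 0.66 for Alas2, and r with Epb42 was 0.15, 0.13 and 0.21. Without the 2 farthest libraries, r of Alas2 with Epb42 was 0.34. Leaving out 1 library, r with Slc4a1 was 0.40 to 0.69 for Hbb, 0.36 to 0.72 for Hba-a2 and 0.48 to 0.87 for Alas2, and r with Epb42 was -0.36 to 0.11 for Hbb and -0.41 to 0.14 for Hba-a2. Of the 71 other erythroid genes, fits of 2 groups alone called 15 higher in EP, 11 in Cur gel and 11 in ZNP gel, and 2 lower in each gel group. On log2(CPM + 1), 0 were lower with the Cur/ZNP gel, 0 with the ZNP gel, 1 with the Cur gel and 2 in EP. Without a filter, 3 were lower in Cur gel and 2 in Cur/ZNP gel, and DESeq2 called 8 lower with the ZNP gel and 8 with the Cur/ZNP gel. Without Sham 4, EP 3 and EP 4, 3 were lower in EP and 9 in Cur/ZNP gel, and without the globin genes 11 were higher in ZNP gel. Leaving out 1 library gave 16 to 21 higher and 2 to 7 lower in EP, 13 to 21 and 2 to 7 with the Cur/ZNP gel, 12 to 19 and 1 to 7 with the ZNP gel, and 14 to 20 and 3 to 8 with the Cur gel. For single genes, Hba-a2 in ZNP gel minus EP was 0.32 on log2(CPM + 1), 0.19 with edgeR and 0.18 with DESeq2, Slc4a1 was 0.12, 0.0377 and 0.0334, Hba-a2 in Cur/ZNP gel minus EP was -0.0161 without those 3 libraries, and Alas2 there was 0.20 on log2(CPM + 1). Leaving out 1 library gave, for ZNP gel minus EP, -0.16 to 0.47 (Hbb), -0.37 to 0.24 (Hba-a2), -0.23 to 0.41 (Alas2) and -0.43 to 0.34 (Slc4a1), and for Cur/ZNP gel minus EP, -0.0714 to 0.25 (Hba-a2) and -0.22 to 0.13 (Alas2). Libraries of the same replicate number did not pair, with r of deviations of -0.39 to 0.51 over 50 pairs and 5 of 25 libraries correlating best with their own number. With the replicate block, 21 other erythroid genes were higher and 5 lower in EP, 0 members were called among EP and the gels, and r of Hbb with Epb42 was 0.0348. Leaving out Sham 4, EP 3 and EP 4, leaving out the globin genes, and leaving out single libraries in the ratios of 1 gene to globin in EP minus sham, were chosen after seeing the data. The causes of these shifts were not tested. Depth limits Slc4a1 and Epb42, which had 0 to 25 and 0 to 122 reads in the sham libraries.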
